A study of Mus musculus with 18 samples.

Results

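The comparison described here sets the 3 libraries labelled shNdufa5_2 in proliferating medium against the 3 shControl libraries in the same medium. These are 6 of the 18 libraries of an RNA-seq series on KPCA.B, a line that models high-grade serous ovarian carcinoma in the mouse. They were chosen by their labels for hairpin and medium. The libraries labelled shNdufa5_2 carry the genotype label Ndufa5 knockdown 2, and the shControl libraries carry the label Ndufa5 wild type. A short hairpin RNA lowers a transcript by RNA interference, and both groups were given a hairpin. The proliferating conditioned medium, PCM, had been on dividing cells treated with DMF, the control for cisplatin. All 6 cultures received it 1:1 with fresh high-glucose DMEM holding 4% serum, 2 ng/mL EGF and a supplement of insulin, transferrin and selenium. The 12 other libraries are the same hairpins in SCM, the medium of cells made senescent with cisplatin, and a separate hairpin, shNdufa5_1 (Ndufa5 knockdown 1), in both media. Whether the cells of a hairpin were a pool or 1 clone, and whether replicates were grown as separate cultures, is not given in the sources used here, so p-values measure a spread between libraries that may be technical.

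Ndufa5 is one of the accessory subunits of complex I, which sits in the inner mitochondrial membrane and opens the respiratory chain. Complex I passes electrons from NADH to ubiquinone and pumps protons. Its matrix arm has an N module that oxidises NADH and a Q module, which holds Ndufa5 and reduces ubiquinone, and its membrane arm has a proximal and a distal part. Loss of complex I function is known to shift the balance of NADH and NAD+ and to act on mitochondrial stress signalling.

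Ndufa5 checks the label, and in PCM its deposited FPKM values did not separate the groups. It stood at 18.7, 17.2 and 16.8 FPKM (fragments per kilobase of transcript and per megafragment of library, the deposited unit) in the libraries labelled shNdufa5_2, against 15.2, 19.0 and 22.1 FPKM in the shControl libraries. The groups overlapped: the lowest library of all 6 was a shControl library, and so were the highest 2. The means were 17.5 ± 1.00 FPKM in the libraries labelled shNdufa5_2 and 18.8 ± 3.46 FPKM in shControl libraries (SD, n = 3 each), which puts the first at 93.4% of the second. On the log2(FPKM + 1) scale the difference was -0.08 (SE 0.12, 95% interval -0.34 to 0.18, limma adjusted p = 0.647), and the two-sided exact permutation test of the FPKM values gave p = 0.6, where 3 against 3 cannot go below 0.1. Leaving out shControl library 1 moved the difference to -0.22, and leaving out shControl library 3 moved it to 0.04. The scale mattered more: on FPKM totals the difference was -0.42 and passed (limma adjusted p = 0.00861), where the median of all genes was -0.30. It was -0.235 with GC and length trends removed (adjusted p = 0.15) and -0.17 on totals of recovered fragments (adjusted p = 0.296). The gene lies on chromosome 6 of GRCm38, from 24518666 to 24528013 on the minus strand, with 1032 bases of exon sequence.

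**Figure D1:**
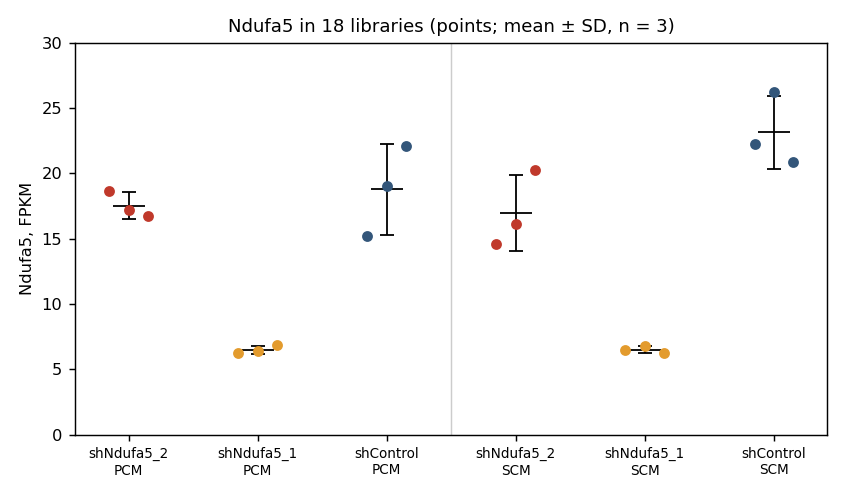
Ndufa5 in FPKM (vertical axis, from 0) in each library of the groups by hairpin and medium; each point is 1 library, the wide line is the mean and the error bar the SD (n = 3). In PCM the libraries labelled shNdufa5_2 (16.8 to 18.7 FPKM) lie inside the range of the shControl libraries (15.2 to 22.1 FPKM), while the shNdufa5_1 libraries lie between 6.23 and 6.85 FPKM.

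The other groups of the series put that level in context. In SCM, Ndufa5 stood at 14.6, 16.1 and 20.2 FPKM in the libraries labelled shNdufa5_2, against 22.3, 26.2 and 20.9 FPKM in shControl libraries. These 6 values did not overlap, and the difference of -0.43 passed the test (limma adjusted p = 0.0125), while the exact permutation test gave p = 0.1, the smallest it can give. The shNdufa5_1 libraries in PCM had 6.23, 6.39 and 6.85 FPKM, 34.6% of the shControl mean, so the libraries labelled shNdufa5_2 were 1.31 higher than them on the log2 scale (limma adjusted p = 1.57e-07). Every direction given below is therefore a direction between libraries labelled shNdufa5_2 and shControl libraries in PCM. Ndufa5 protein is not analysed here.

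These groups differed in many genes and by small amounts. Of 11084 genes with a mean of at least 1 FPKM over the 18 libraries, 3947 differed (35.6%, limma adjusted p under 0.05), 2138 higher in the libraries labelled shNdufa5_2 (19.3%) and 1809 lower (16.3%). The median absolute log2 difference of these genes was 0.29, and 26 were higher and 8 lower by at least 2-fold. Among lists of more than 10 tested genes, cytosolic ribosomal proteins and interferon-stimulated genes had the highest shares of members up, and SR splicing factors had the highest share down. The deposited FPKM values share a common median gene, so all differences are relative to it, and the median of all genes was 0.01. Scaling to FPKM totals moved that median to -0.30 and gave 139 genes higher and 6315 lower. Small rises turn on that scale, among them those of Ndufs3, Ndufa7, Ndufv1, Sdhc, mt-Co1, Mcm7, Ccnb2, Rpl5, Trim25, Cdkn1a and Srsf9. Scaling to totals of recovered fragments moved it to -0.07 and gave 1335 higher and 2883 lower.

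Recovered depth was 16.7, 16.8 and 13.8 M (mega) fragments in the libraries labelled shNdufa5_2 and 15.3, 33.9 and 17.6 M in the shControl libraries, within a range of 13.8 to 39 M over the series. Log2 differences rose with GC content (Spearman rho 0.456 across 11074 genes) and fell with transcript length (rho -0.29). Genes are not independent replicates, so these carry no p. With both trends removed, 1569 genes were higher and 1300 lower. Part of the epithelial and ovarian list was expressed: 14 of its 26 members averaged at least 1 FPKM over the 6 libraries, and 4 stayed under 0.1 FPKM. The list summed to 1500 to 1530 FPKM in the libraries labelled shNdufa5_2 and 1330 to 1410 FPKM in shControl libraries, with Wt1 and Muc16 at 0 in all 6. Such a sum weighs abundant members most. In bulk RNA, fewer cells of a type and less RNA per cell cannot be told apart.

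Interferon-stimulated genes had the highest median of the lists shown, so promoter windows of 3 of them are given first. That rank depended on the filter on low values. Their median was 0.452 with no filter except above 0 in 1 library and 0.445 at a mean of at least 5 FPKM. Cytosolic ribosomal proteins stood at 0.473 under both and so lay above them. Type I interferon signals through factors such as Stat2 and Irf9, which act at a response element built from GAAA repeats. The 160 bases before the RefSeq start (GRCm38.p6) are given 5′ to 3′ on the gene's strand, and capitals mark GAAANNGAAA on either strand, which reads TTTCNNTTTC where it lies on the other strand. Isg15 (chr4:156200819-156200978, minus strand), Ifit3 (chr19:34583369-34583528, plus strand) and Bst2 (chr8:71537473-71537632, minus strand) were chosen because they rose and hold more than 1 match.
Isg15: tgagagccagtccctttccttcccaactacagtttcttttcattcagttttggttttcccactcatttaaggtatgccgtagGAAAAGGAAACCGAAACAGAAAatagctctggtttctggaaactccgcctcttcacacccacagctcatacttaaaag
Ifit3: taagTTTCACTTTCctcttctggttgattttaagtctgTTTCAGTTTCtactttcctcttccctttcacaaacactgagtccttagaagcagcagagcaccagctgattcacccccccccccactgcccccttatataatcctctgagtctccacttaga
Bst2: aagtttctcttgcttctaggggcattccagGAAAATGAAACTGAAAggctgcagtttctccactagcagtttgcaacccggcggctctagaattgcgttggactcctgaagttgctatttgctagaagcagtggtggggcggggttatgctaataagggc
Matches began 78, 72 and 66 bases before the start in Isg15, 156 and 122 in Ifit3, and 130 and 124 in Bst2, and those of Isg15 and of Bst2 overlap each other. Only this motif was searched. It occurs in the 250 bases upstream of 978 of 32851 RefSeq windows (2.98%). That share counts windows, while the list is counted by gene, with the motif in any window of the gene. The list counts are therefore not directly comparable with that share. Of the 20 tested interferon-stimulated genes, 17 had a window and 5 of these held it, and of the 16 that rose, 13 had a window and 4 held it (Isg15, Ifit3, Stat2 and Bst2). A match is a string of letters, not a measured binding site.

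Interferon-stimulated genes were higher in the libraries labelled shNdufa5_2 than in shControl libraries. Of the 20 list members tested, 16 rose and none fell, with a median log2 difference of 0.59 against 0.01 for all genes. The list's mean log2(FPKM + 1) lay between 3.10 and 3.17 in the libraries labelled shNdufa5_2 and between 2.51 and 2.54 in shControl libraries. Irf7, the transcription factor that amplifies type I interferon expression, stood at 5.72, 5.45 and 6.03 FPKM in the libraries labelled shNdufa5_2, against 1.34, 1.44 and 1.75 FPKM in shControl libraries. All 3 of the first were more than 3 FPKM above all 3 of the second, a log2 difference of 1.43 (SE 0.10, limma adjusted p = 8.61e-08). Isg15, a ubiquitin-like protein conjugated to targets after interferon, stood at 11.6, 16.3 and 11.6 FPKM in the libraries labelled shNdufa5_2, against 4.40, 5.0 and 5.01 FPKM in shControl libraries (log2 difference 1.27, SE 0.25, limma adjusted p = 0.000953). One library labelled shNdufa5_2 ran above its 2 partners. Irf7 and Isg15 were named among genes whose groups do not overlap.

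Bst2, or tetherin, which holds enveloped virus particles at the cell surface, stood at 85.0, 83.0 and 82.7 FPKM in the libraries labelled shNdufa5_2, against 43.4, 43.6 and 45.3 FPKM in shControl libraries. Its log2 difference of 0.91 (limma adjusted p = 1.04e-07) came with very little spread within either group. Ifi27, another interferon-induced gene, was as tight, at 78.4, 78.1 and 77.8 FPKM in the libraries labelled shNdufa5_2 and 41.0, 42.3 and 41.3 FPKM in shControl libraries (log2 difference 0.89). Rtp4, a chaperone of receptors that interferon induces, had 3.12, 2.33 and 2.81 FPKM in the libraries labelled shNdufa5_2, against 0.559, 0.774 and 0.635 FPKM in shControl libraries (log2 difference 1.18). Irf9 and Stat2, factors of the interferon response complex, rose by 0.61 and 0.51.

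Further members that rose included Oasl2 (log2 difference 0.91), Xaf1 (0.74), Oasl1 (0.72), the antiviral membrane protein Ifitm3 (0.66), Ifit3 (0.57), the RNA sensor Ddx58 (0.45), Ifi35 (0.41) and Trim25 (0.28). The 4 tested members that did not pass were Ifit1 (0.26, limma adjusted p = 0.0546), Irf1 (0.16), Ifit2 (-0.06) and the RNA-activated kinase Eif2ak2 (-0.10). The filter on low values left out 11 of the 31 listed genes, and a gene passed more easily where it was high. Among those left out, Usp18, the protease that removes Isg15 from its targets, had 1.96, 1.44 and 1.51 FPKM in the libraries labelled shNdufa5_2, against 0.292, 0.469 and 0.504 FPKM in shControl libraries. Oas1a, a sensor of double-stranded RNA, had 1.27, 1.22 and 0.941 FPKM in the libraries labelled shNdufa5_2, against 0.1996, 0.181 and 0.0862 FPKM in shControl libraries. Both were untested but did not overlap between the groups, which also held for 49.8% of all genes tested. Cmpk2 was listed at 0 in all 6 libraries. Usp18 and Oas1a were picked after their values were seen, and they do not stand for the other genes left out. With no filter except above 0 in 1 library, the list median was 0.452.

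On FPKM totals 11 of the 20 rose and 2 fell, with a median of 0.31 where all genes had -0.30. With GC and length trends removed 16 rose and none fell (0.53), and under quantile normalization 17 rose and none fell (0.58). Immune cell markers were checked beside it: their summed level was 12 to 15.1 FPKM in the libraries labelled shNdufa5_2 and 8.0 to 9.11 FPKM in shControl libraries, while 8 of the 12, among them the leukocyte marker Ptprc and the macrophage marker Adgre1, were at 0 in all 6. The higher sum is that of Cd68, given further on; the only other marker tested, Cd14, was not called (-0.08), with 6.77, 5.79 and 5.45 FPKM in the libraries labelled shNdufa5_2 and 5.90, 7.04 and 6.27 FPKM in shControl libraries.

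**Figure D2:**
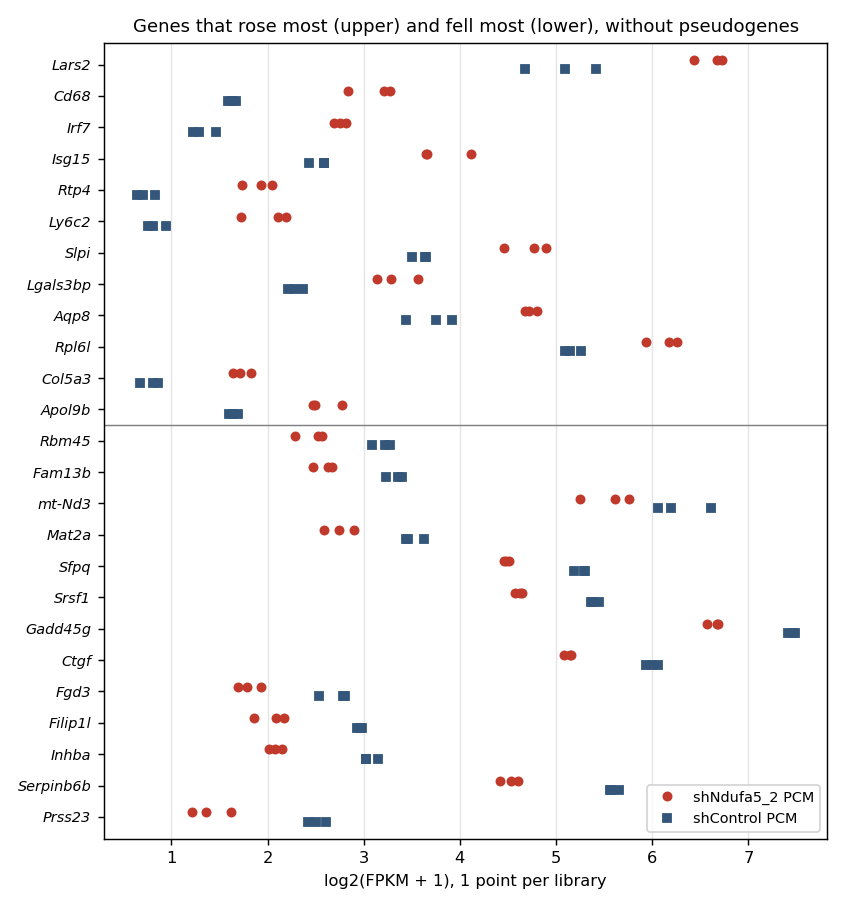
Log2(FPKM + 1) (horizontal axis) of named genes among the 15 largest rises and 15 largest falls, pseudogenes not shown, in PCM; circles are the 3 libraries labelled shNdufa5_2 and squares the 3 shControl libraries. The genes were chosen for groups that do not overlap, and Irf7 lies at 5.45 to 6.03 FPKM in the libraries labelled shNdufa5_2 and at 1.34 to 1.75 FPKM in shControl libraries.

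Antigen presentation by MHC class I, which interferon also induces, was higher too. Of 14 tested genes of MHC class I and the immunoproteasome, 10 rose and none fell, with a median of 0.32, which became -0.02 on FPKM totals. B2m, the light chain of MHC class I, stood at 440, 403 and 384 FPKM in the libraries labelled shNdufa5_2, against 303, 286 and 289 FPKM in shControl libraries. The lowest of the first lay well above the highest of the second (log2 difference 0.48, SE 0.05, limma adjusted p = 3.43e-06). The peptide transporter Tap1 rose by 0.58, its partner Tapbp by 0.48 and the class I gene H2-T23 by 0.64. Genes of the H2 family are near-identical copies, so H2-T23 is uncertain, and with GC and length trends removed 5 members passed in place of 10.

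Cytosolic ribosomal proteins rose as a body. Of the 39 tested, 38 were higher in the libraries labelled shNdufa5_2 and none lower, with a median log2 difference of 0.47. Rps4x, a small-subunit protein, stood at 805, 766 and 764 FPKM in the libraries labelled shNdufa5_2, against 496, 498 and 500 FPKM in shControl libraries (log2 difference 0.64, SE 0.03, limma adjusted p = 8.21e-09). Rplp2, a protein of the ribosomal stalk, had 383, 373 and 386 FPKM in the libraries labelled shNdufa5_2, against 226, 261 and 238 FPKM in shControl libraries (log2 difference 0.66). Both showed wide gaps between groups that vary by far less within them. Rpl6 rose by 0.64 and Rps16 by 0.59, and the smallest change that passed was that of Rpl5, at 0.25. The 1 member that did not pass, Rps27a, which encodes ubiquitin fused to a ribosomal protein, had 141, 259 and 243 FPKM in the libraries labelled shNdufa5_2, against 82.5, 117 and 196 FPKM in shControl libraries, which overlap.

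In share of fragments, the list took 4.98% ± 0.0427 of each library labelled shNdufa5_2 and 3.87% ± 0.0907 of each shControl library (SD, n = 3 each). The number of calls depended on the scaling. On FPKM totals 7 of 39 rose and none fell (median 0.12), where all genes had -0.30. Under quantile normalization 19 rose and 2 fell (0.11). On totals of recovered fragments 38 rose and none fell (0.38), where all genes had -0.07. With GC and length trends removed 38 rose. Ribosomal pseudogenes share reads with these genes: Rpl39-ps (1.18), Rps25-ps1 (1.16) and the near-copy Rpl6l (0.95) stood among the 15 largest rises and are uncertain. Rps25-ps1 lost its call without any of 4 libraries, with 0.83 (limma adjusted p = 0.119) without library 3 of those labelled shNdufa5_2.

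SR proteins and their relatives, which bind exonic enhancers and direct splicing, were lower in the libraries labelled shNdufa5_2. Of 19 tested, 15 fell and 1 rose, with a median log2 difference of -0.33. Srsf1, the founding member, stood at 24.0, 22.8 and 23.6 FPKM in the libraries labelled shNdufa5_2, against 42.5, 40.2 and 40.9 FPKM in shControl libraries. The highest of the first lay far under the lowest of the second (log2 difference -0.79, SE 0.04, limma adjusted p = 5.51e-09). Tra2a and Tra2b, splicing activators related to the SR family, fell by 0.68 and 0.58, and Luc7l3 and Srsf10 by 0.63 and 0.59. Srsf3, the smallest SR protein, had 41.9, 38.4 and 38.3 FPKM in the libraries labelled shNdufa5_2, against 57.5, 55.9 and 57.3 FPKM in shControl libraries (log2 difference -0.52).

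Srsf6 (-0.45), Pnisr (-0.34), Srsf2 (-0.34), Srsf5 (-0.33), Srsf7 (-0.29), Luc7l2 (-0.20) and Son (-0.17) also fell, as did the kinases that phosphorylate SR proteins, Clk4 (-0.29) and Clk1 (-0.27). Srsf9 rose by 0.29, and Srsf4, Srsf11 and Rbm25 did not pass. Outside the list, the splicing factor Sfpq stood at 20.9, 21.4 and 21.8 FPKM in the libraries labelled shNdufa5_2, against 38.5, 38.1 and 35.4 FPKM in shControl libraries (log2 difference -0.78), and the RNA-binding protein Rbm45 fell by 0.74. Mat2a, which makes S-adenosylmethionine, fell by 0.77. With GC and length trends removed, 8 of the 19 list members fell in place of 15, with a median of -0.13, while Srsf1 (-0.58) and Sfpq (-0.79) still passed; Srsf5, Srsf7, Clk1, Clk4, Luc7l2, Pnisr and Son did not, and Luc7l2 turned (0.01).

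**Figure D3:**
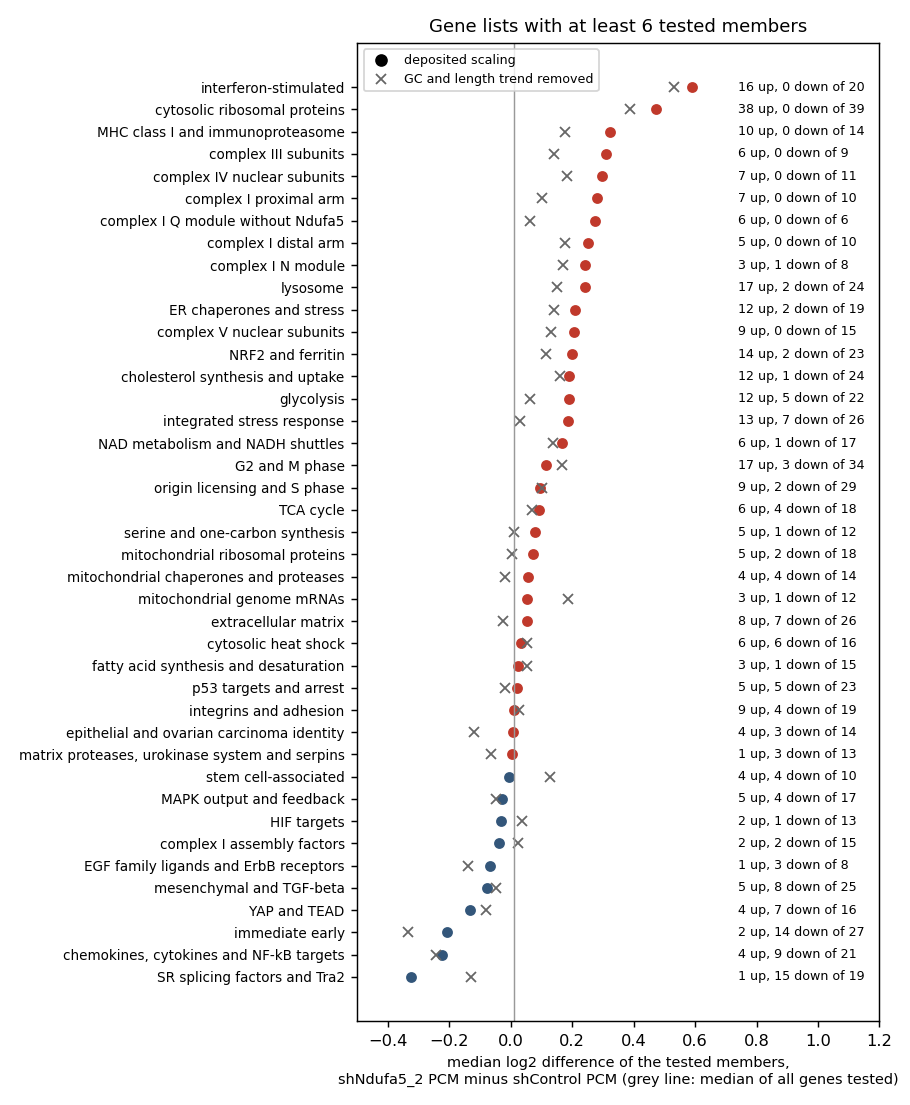
Median log2 difference on the log2(FPKM + 1) scale (horizontal axis, libraries labelled shNdufa5_2 minus shControl libraries in PCM) of each gene list with at least 6 tested members; circles use the deposited scaling, crosses have GC and length trends removed, and the grey line is the median of all genes. The interferon-stimulated (0.59) and ribosomal (0.47) lists lie farthest right and the SR list (-0.33) farthest left; on FPKM totals the medians of the respiratory complexes and of MHC class I fall under 0.

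Nuclear subunits of the respiratory chain were modestly higher in the libraries labelled shNdufa5_2, though Ndufa5 itself was not. In complex I, 6 of 6 other Q-module subunits rose (median 0.27), as did 3 of 8 in the N module, where 1 fell (0.24), 7 of 10 in the proximal arm (0.28) and 5 of 10 in the distal arm (0.25). Ndufs3, the Q-module subunit beside Ndufa5 in the matrix arm, stood at 45.0, 43.4 and 45.1 FPKM in the libraries labelled shNdufa5_2, against 34.4, 37.0 and 33.3 FPKM in shControl libraries (log2 difference 0.34, limma adjusted p = 6.94e-05). Ndufa11, in the proximal arm, had 60.1, 50.7 and 49.1 FPKM in the libraries labelled shNdufa5_2, against 37.4, 39.2 and 35.7 FPKM in shControl libraries (log2 difference 0.49, adjusted p = 0.00205). Neither overlapped between groups, which also held for 49.8% of all genes tested, and both were picked for the size of their change. For Ndufa11, 1 library labelled shNdufa5_2 ran above the others.

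The NADH-binding Ndufv1 rose by 0.33, its neighbour Ndufv3 by 0.45, Ndufa7 by 0.33, Ndufa3 by 0.38, Ndufb11 by 0.39 and Ndufb4 by 0.36. Ndufs1, the large iron-sulfur subunit of the N module, was the 1 subunit that fell, by 0.21, and it did not pass without shControl library 3 (-0.16, limma adjusted p = 0.0535). Assembly factors moved both ways, with Ndufaf3 at 0.40 among 2 that rose, Ndufaf4 at -0.33 among 2 that fell, and 11 of 15 not passing. These shares, 13.3% each way, lie under the 19.3% up and 16.3% down of all genes.

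The later complexes had like shares. In complex II 3 of 4 rose (median 0.23), in complex III 6 of 9 (0.31), among nuclear subunits of complex IV 7 of 11 (0.30) and of complex V, the ATP synthase, 9 of 15 (0.21), and none fell. The largest changes were those of Atp5e (0.55), Atp5d (0.49), Uqcrh (0.48) and Cox6a1 (0.47), while Sdhc of complex II rose by 0.28. Of the 12 tested mRNAs of the mitochondrial genome, 3 rose and 1 fell, where 19.3% of all genes rose and 16.3% fell. Their median of 0.05 turned to -0.26 under quantile normalization. The one that fell, mt-Nd3, a membrane subunit of complex I, had 47.9, 37.1 and 53.3 FPKM in the libraries labelled shNdufa5_2, against 66.0, 72.4 and 97.1 FPKM in shControl libraries (log2 difference -0.75). The catalytic subunit mt-Co1 of complex IV rose by 0.31, which turned under quantile normalization (-0.16) and on FPKM totals (-0.05).

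The respiratory medians depend on scale and base composition. On FPKM totals they all turned, to -0.08 in the Q module and -0.15 in complex V, where all genes had -0.30. With GC and length trends removed, 2 of 6 Q-module, 3 of 10 proximal and 1 of 10 distal subunits passed, with medians of 0.06 in the Q module and 0.10 in the proximal arm, and Ndufa11 did not pass (0.24, limma adjusted p = 0.1). The N module then had 3 of 8 up, complex II 2 of 4, complex III 4 of 9, complex IV 7 of 11 and complex V 9 of 15, and none fell in any of these lists.

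Other metabolic and organelle lists rose in part. Among 23 tested NRF2 targets and ferritins, 14 rose and 2 fell (median 0.20). Fth1, the ferritin heavy chain that stores iron, rose by 0.69, the light chain Ftl1 by 0.62 and the quinone reductase Nqo1 by 0.54. Among lysosomal genes 17 of 24 rose and 2 fell (0.24), with the protease Ctsd, the sterol carrier Npc2 and the granulin precursor Grn at 0.41 each. Chaperones of the endoplasmic reticulum rose in 12 of 19 and fell in 2 (0.21), with Sdf2l1 at 0.61, Manf at 0.45 and Hyou1 at 0.37. Cholesterol synthesis and uptake had 12 of 24 up and 1 down (0.19), glycolysis 12 of 22 up and 5 down (0.19), and the integrated stress response 13 of 26 up and 7 down (0.19). On FPKM totals all of these 6 medians turned, to between -0.11 and -0.17. Under quantile normalization the integrated stress response had 5 up and 11 down (median 0.01), glycolysis 8 up and 7 down (0.05) and the chaperones 9 up and 7 down (0.08). Genes of NAD metabolism and NADH shuttles had 6 of 17 up and 1 down. The TCA cycle had 6 of 18 up and 4 down, with a median of 0.09 that turned under quantile normalization (-0.001), and HIF targets had 2 of 13 up and 1 down (-0.03), where 19.3% of all genes were up and 16.3% down.

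Immediate early and cytokine genes were more often lower than higher. Of 27 tested immediate early genes, the first transcribed after a growth signal, 14 fell and 2 rose (median -0.21). Klf4 stood at 27.4, 28.1 and 27.2 FPKM in the libraries labelled shNdufa5_2, against 44.9, 43.5 and 38.6 FPKM in shControl libraries (log2 difference -0.60, limma adjusted p = 6.23e-07), a gap larger than the spread of either group. Btg2 fell by 0.72, Cyr61 by 0.50, Klf6 by 0.49, Myc by 0.38 and Jun by 0.31. Of 21 tested chemokines, cytokines and NF-kB targets, 9 fell (42.9%) and 4 rose (19.0%), with a median of -0.23. Of all genes, 16.3% fell and 19.3% rose, so the share of this list that rose was near that of all genes. Among its members Ccl5 rose by 0.57 (limma adjusted p = 0.0151). The growth factor gene Csf2 had 17.9, 15.9 and 15.6 FPKM in the libraries labelled shNdufa5_2, against 27.8, 26.9 and 25.6 FPKM in shControl libraries (log2 difference -0.67), and Cxcl12 fell by 0.61, Ccl2 by 0.57 and the NF-kB inhibitor Tnfaip3 by 0.52. Both medians stayed under 0 on every scaling, at -0.55 and -0.53 on FPKM totals, where all genes had -0.30.

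Growth factor and matrix genes gave mixed counts with some clear members. Inhba, the subunit of activin A, stood at 3.21, 3.44 and 3.03 FPKM in the libraries labelled shNdufa5_2, against 7.84, 7.12 and 7.15 FPKM in shControl libraries (log2 difference -0.99, limma adjusted p = 2.21e-07). Ctgf, a matrix protein and YAP target, had 33.0, 34.7 and 34.5 FPKM in the libraries labelled shNdufa5_2, against 65.6, 62.9 and 60.0 FPKM in shControl libraries (log2 difference -0.86, adjusted p = 3.15e-08). Tgfb1 rose by 0.57 and Tgfb2 fell by 0.50. The matrix genes Thbs1, Col6a1 and Loxl2 fell by 0.51, 0.53 and 0.54, while the matrix gene Col18a1 rose by 0.715. Of 16 YAP and TEAD targets 7 fell and 4 rose (median -0.13), of 25 mesenchymal and TGF-beta genes 8 fell and 5 rose (-0.08), and of 26 matrix genes 7 fell and 8 rose (0.05, which turned to -0.02 under quantile normalization). Of all genes, 16.3% fell and 19.3% rose. In the list of EGF family ligands and ErbB receptors, 3 of 8 tested genes fell and 1 rose (median -0.07). The receptor Egfr fell by 0.41, its feedback inhibitor Errfi1 by 0.47 and the ligand Nrg1 by 0.54, while the ligand Tgfa rose by 0.26.

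Cell cycle genes rose in part and by small amounts. Of 34 tested G2 and M phase genes 17 rose and 3 fell (median 0.11), with Ccnb2 and Aurkb at 0.34 each. Of 29 S phase genes 9 rose and 2 fell (0.09), with the helicase subunit Mcm7 at 0.31. Of all genes, 19.3% were up and 16.3% down. Both medians turned on FPKM totals, to -0.22 and -0.23. With GC and length trends removed, 19 G2 and M phase genes rose and none fell (0.17). S phase genes then had 3 up and 2 down (0.10). Mki67, the proliferation marker, was not called, at 13.9, 13.4 and 14.0 FPKM in the libraries labelled shNdufa5_2, against 12.6, 13.2 and 12.9 FPKM in shControl libraries. The cyclin-dependent kinase inhibitors Cdkn2a and Cdkn2b rose by 0.43 and 0.47, and Cdkn1a, the p53 target p21, by 0.23. The 23 p53 and arrest genes had 5 up (21.7%) and 5 down (21.7%), near the shares of all genes. Their median of 0.02 turned under quantile normalization (-0.02) and with GC and length trends removed (-0.02). Among them Gadd45g stood at 94.2, 102 and 101 FPKM in the libraries labelled shNdufa5_2, against 169, 176 and 178 FPKM in shControl libraries (log2 difference -0.81). The epithelial and ovarian list had 4 of 14 up (28.6%) and 3 down (21.4%). In it the transcription factor Sox17 fell by 0.73 and the progesterone receptor Pgr by 0.43, while Msln rose by 0.29.

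Several of the genes that differed most lie outside the lists above or are known from other cells. Cd68, a lysosomal membrane glycoprotein used as a macrophage marker, stood at 8.27, 6.13 and 8.70 FPKM in the libraries labelled shNdufa5_2, against 2.10, 2.01 and 2.20 FPKM in shControl libraries (log2 difference 1.48, SE 0.20, limma adjusted p = 4.15e-05). Slpi, a secreted inhibitor of leukocyte proteases, had 21.0, 28.7 and 26.3 FPKM in the libraries labelled shNdufa5_2, against 10.4, 11.4 and 11.6 FPKM in shControl libraries (log2 difference 1.11). Both were named by a rule that asks for groups that do not overlap, so their lack of overlap adds nothing. The lowest Cd68 library labelled shNdufa5_2 was far above the highest shControl library. Lgals3bp, a secreted galectin ligand, rose by 1.04, the water channel Aqp8 by 1.03, Col5a3 by 0.94 and Apol9b by 0.94. Serpinb6b, an intracellular protease inhibitor, had 23.3, 22.2 and 20.3 FPKM in the libraries labelled shNdufa5_2, against 46.4, 46.6 and 49.3 FPKM in shControl libraries (log2 difference -1.08), and the secreted protease Prss23 fell by 1.11, Filip1l by 0.92, Fgd3 by 0.91 and Fam13b by 0.74. The pseudogenes Zfp422-ps (-1.01) and Stxbp3-ps (-0.83) are uncertain, and the first did not pass without shControl library 1 (-0.76, adjusted p = 0.0599) or without library 3 of those labelled shNdufa5_2 (-0.82, adjusted p = 0.0539).

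Lars2, the mitochondrial leucyl-tRNA synthetase, was the named gene that rose most (1.55, limma adjusted p = 0.00112), with 101, 105 and 85.3 FPKM in the libraries labelled shNdufa5_2, against 33.1, 41.8 and 24.6 FPKM in shControl libraries. An rRNA-like feature, Gm23935, moved with it, at 0.377% ± 0.0396 of fragments in the libraries labelled shNdufa5_2 and 0.128% ± 0.0352 in shControl libraries (SD, n = 3 each). Its part in the Lars2 value was not tested.

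The same hairpin in SCM gave different values. The comparison in SCM shares no library with that in PCM. In SCM, 3758 genes differed (33.9%), and 398 genes were called in the same direction in both media, 10.1% of those called in PCM and 10.6% of those called in SCM. In opposite directions 1504 were called, 38.1% of the PCM calls and 40.0% of the SCM calls. Across 11084 genes the log2 differences correlated negatively (Pearson r -0.237, Spearman rho -0.298), a description across genes that share a base composition and are not independent replicates. The difference between the media was tested directly, as the SCM difference minus the PCM difference, and passed for 4768 genes (43.0%).

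**Figure D4:**
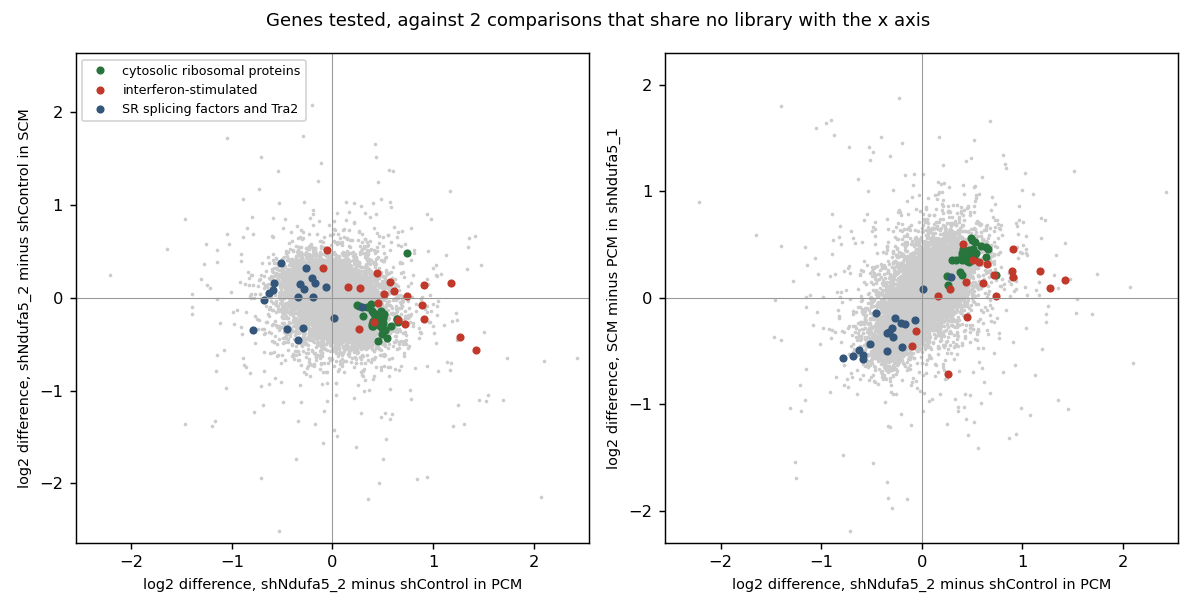
Log2 differences on the log2(FPKM + 1) scale for each tested gene, with those of libraries labelled shNdufa5_2 minus shControl libraries in PCM on the horizontal axis and those in SCM, and of SCM minus PCM in shNdufa5_1 libraries, on the vertical axes of the left and right panels. The cloud slopes down for SCM (rho -0.298) and up for shNdufa5_1 (rho 0.58).

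The lists that led in PCM did not lead in SCM. Rises and falls here are those of libraries labelled shNdufa5_2 against shControl libraries within the medium named. In SCM, 2 of the 20 interferon-stimulated genes rose and 4 fell (median 0.03), where 13.9% of all genes rose and 20% fell, so these counts are near the background. For 14 of 20 the SCM difference was below the PCM difference by the test, with 1 above, where 24.1% of all genes were below and 18.9% above. The list's mean log2(FPKM + 1) in SCM was 3.21 to 3.24 in libraries labelled shNdufa5_2 and 3.21 to 3.29 in shControl libraries, so the groups that were apart in PCM met there. Irf7 in SCM stood at 5.25, 5.95 and 4.44 FPKM in libraries labelled shNdufa5_2, against 7.29, 8.21 and 8.89 FPKM in shControl libraries, the reverse of its order in PCM. Of the ribosomal proteins 35 of 39 fell in SCM and none rose (median -0.26), and 38 passed the test of the difference, all lower in SCM. Among SR factors 5 rose and 4 fell in SCM (median 0.06), and 12 of 19 had a higher difference in SCM than in PCM, against 1 lower. The complex I Q module had 5 of 6 down in SCM (-0.36), the proximal arm 7 of 10 (-0.25), the distal arm 7 of 10 (-0.28) and complex V 10 of 15. Slpi fell by 0.29 in SCM, and Hspa1b, an inducible Hsp70, which rose by 0.84 in PCM, fell by 1.96 in SCM (a near-copy of Hspa1a, so uncertain).

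**Figure D5:**
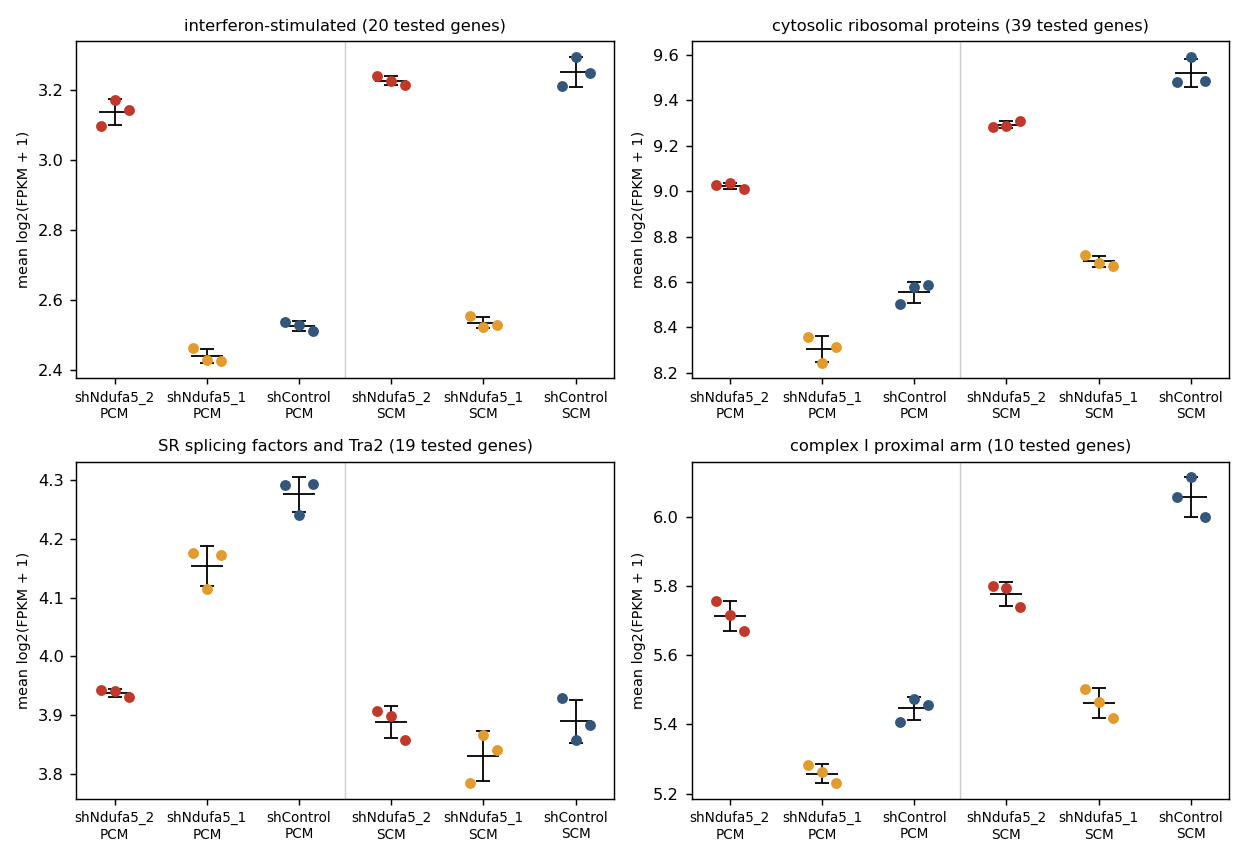
Mean log2(FPKM + 1) over the tested members of 4 gene lists in each of the 18 libraries, by hairpin and medium; each point is 1 library, with the mean and SD of 3. Interferon-stimulated genes lie at 3.10 to 3.17 in libraries labelled shNdufa5_2 in PCM, 2.43 to 2.46 in shNdufa5_1 and 2.51 to 2.54 in shControl, and SR factors at 3.93 to 3.94, 4.12 to 4.18 and 4.24 to 4.29.

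A small set of genes differed the same way in both media: 398 of 11084 were called so, against 1504 called in opposite directions. Of these 398, 368 also had a gene name and 3 and 3 values that do not overlap in either medium. They were 163 higher and 205 lower. In PCM alone 49.8% of all genes did not overlap. The set was picked by these conditions, so its genes are given as a description. Ly6c2, a surface protein of the Ly6 family, had 3.57, 3.30 and 2.29 FPKM in libraries labelled shNdufa5_2 in PCM, against 0.755, 0.924 and 0.692 FPKM in shControl libraries (log2 difference 1.17), and its difference in SCM was 1.16. Ctgf was at -0.86 in PCM and -0.74 in SCM, where it had 38.1, 36.6 and 32.9 FPKM in libraries labelled shNdufa5_2 and 60.1, 60.9 and 61.1 FPKM in shControl libraries. The collagen Col5a3 was at 0.94 in PCM and 0.90 in SCM, and the urokinase gene Plau at 0.69 and 0.72. The test between media did not pass for these 4, with SCM minus PCM differences of -0.01 for Ly6c2, 0.12 for Ctgf, -0.04 for Col5a3 and 0.03 for Plau. The alarmin Il33 (0.81 and 0.52), Col18a1 (0.71 and 0.23), Aqp8 (1.03 and 0.24), Serpinb6b (-1.08 and -0.56), Fgd3 (-0.91 and -0.31) and Srsf1 (-0.79 and -0.35) were closer to 0 in SCM, and the test between media passed for all of these but Il33. Cyr61, a YAP target like Ctgf, was at -0.50 in PCM and -0.61 in SCM.

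The libraries of shNdufa5_1, which had less Ndufa5 mRNA, differed from the libraries labelled shNdufa5_2 in the same medium. The comparison of shNdufa5_1 with shControl shares the shControl libraries, so the values are only set side by side. It called 5839 genes (52.7%), 2839 higher in shNdufa5_1 libraries (25.6% of all genes) and 3000 lower (27.1%). Interferon-stimulated genes had 3 up and 3 down of 20 in shNdufa5_1 libraries (median -0.10), ribosomal proteins 2 up and 30 down of 39 (-0.29), SR factors 6 up and 7 down of 19 (-0.02), and endoplasmic reticulum chaperones 1 up and 15 down of 19 (-0.31). Immediate early genes had 6 up and 17 down of 27 in shNdufa5_1 libraries (-0.43), beside 2 up and 14 down (-0.21) for the libraries labelled shNdufa5_2. G2 and M phase genes had 31 of 34 up in shNdufa5_1 libraries (0.57).

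Directly between the hairpins in PCM, 6967 genes differed (62.9%), 3654 (33.0%) higher in the libraries labelled shNdufa5_2 than in shNdufa5_1 libraries and 3313 lower (29.9%). Interferon-stimulated genes were higher in 17 of 20 and lower in 2 (median 0.69), ribosomal proteins higher in 38 of 39 (0.73), all 6 other Q-module subunits higher (0.40), and G2 and M phase genes lower in 29 of 34 and higher in 3. Sdf2l1, the chaperone that rose by 0.61 against shControl, stood at 49.98, 55.1 and 50.03 FPKM in the libraries labelled shNdufa5_2, against 10.4, 11.1 and 9.46 FPKM in shNdufa5_1 libraries. Mat2a had 6.45, 5.71 and 4.99 FPKM in the libraries labelled shNdufa5_2, against 19.8, 17.7 and 22.3 FPKM in shNdufa5_1 libraries, with shControl between them at 9.88, 10.01 and 11.4 FPKM.

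The PCM comparison was set beside 1 in libraries it did not use, and some lists had like values while others did not. In shNdufa5_1 libraries, SCM against PCM changed 4687 genes (42.3%), and 2501 of them were also called in the same direction in the PCM comparison of libraries labelled shNdufa5_2 and shControl, 63.4% of the PCM calls and 53.4% of the others, against 133 in the opposite direction (3.37% and 2.84%). Across genes Pearson's r was 0.482 and Spearman's rho 0.58, given as a description with no p. In that response the median was 0.15 for interferon-stimulated genes, 0.39 for ribosomal proteins and -0.33 for SR factors, where all genes had 0.02. Ribosomal proteins had 38 of 39 up and SR factors 16 of 19 down, but interferon-stimulated genes had 5 of 20 up and 3 down, where 22.5% of all genes were up and 19.8% down. Immediate early genes had 8 of 27 up and 6 down (median 0.03), and cytokine genes 11 of 21 up and 4 down (0.22), where both lists had medians under 0 in the PCM comparison. Slpi changed by 0.98 in it and Aqp8 by 1.17, beside differences of 1.11 and 1.03 in the PCM comparison, while Irf7 changed by 0.17, beside 1.43.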

How the data were processed

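KPCA.B RNA was selected for poly(A) tails and prepared with NEBNext Ultra II, as the labels' protocols state. The authors deposited FPKM values for 54532 mouse genes; the submitters' processing notes name STAR 2.6.1, DESeq2, GRCm38 and mm10. The sources used here do not give the counter, gene lengths, FPKM denominator or use of strand, so near-identical copies and antisense genes are uncertain. GENCODE vM21 held 99.9% of the identifiers.

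A low FPKM value is a multiple of what 1 fragment is worth, which gave the fragments: of values up to 20 fragments, 99.5 to 99.8% in a library were whole within 0.1 for genes with 1 transcript and 96.7 to 97.8% for others. FPKM was tested as log2(FPKM + 1), a scale on which low genes change less, by limma 3.58.1 (R 4.3.3): 6 group coefficients over 18 libraries, trended variances, Benjamini-Hochberg adjustment over 11084 genes averaging at least 1 FPKM, and calls at an adjusted p under 0.05. On simulated data for this comparison with 200 of 11084 genes changed, it recovered 69.5% at a log2 change of 0.5 (4 false calls) and 94% at 1 (9 false calls). The simulated noise was normal and independent between genes. It held no GC trend or shift of scale, so these counts do not cover false calls from such shifts. Ndufa5 also had an exact permutation test (SciPy 1.17.1).

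The members and 48 gene lists were chosen with earlier results of these data known, so lists are described by counts and medians with no test of their own. Genes were named by a rule: Ndufa5, the 15 largest rises and 15 largest falls among called genes with no overlap and a gene name, up to 4 called members per list, the 10 largest in both media, and 5 each way in the tests between media and between hairpins. Other members of lists were named to account for the list, after their values were seen. The alternatives were another pseudocount (0.1), filters, scalings, removal of GC and length trends, library weights, a replicate block, only the 6 PCM libraries, and each library left out. Some results on single genes are not reported here.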

Additional observations from a re-analysis of the deposited data

Results flagged for a closer look

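In the test of whether the difference of libraries labelled shNdufa5_2 from shControl libraries depends on the medium (SCM difference minus PCM difference), 4768 genes passed. The named genes that came out far apart in it were Hspa1b (-2.80), Lars2 (-2.59), the small heat shock protein Hspb1 (-2.24), Irf7 (-1.98) and the pseudogene Rps25-ps1 (-1.94), all with a lower difference in SCM. The zinc finger genes Zfp938 (1.08) and Zfp62 (1.02), the pseudogenes Zfp422-ps (1.07) and Znf41-ps (1.01), and Filip1l (1.09) had a higher difference in SCM. Hspb1 in PCM did not pass when any 1 of the 6 libraries was left out.

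Between the hairpins in PCM, 6967 genes differed. Higher in libraries labelled shNdufa5_2 than in shNdufa5_1 libraries were Sdf2l1 (2.22), the stress-induced Gadd45b (2.06), Prr13 (2.02), Cd68 (1.88) and the class I gene H2-K2 (1.76), which has near-identical copies. Lower were the long noncoding RNA Neat1 (-1.70), the methionine adenosyltransferase Mat2a (-1.64), the RNA helicase Dhx9 (-1.64), Tppp3 (-1.64) and Ift74, a part of the ciliary transport complex (-1.62). Groups of 3 libraries are too small for a test of a single outlying library.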

How the results depend on the processing

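The number of genes that differed in PCM was 3947 on the deposited scale. It stayed within 1.5 times that with pseudocount 0.1, with no filter, with a mean of at least 5 FPKM, under quantile normalization, with GC and length trends removed, with library weights, and with only the 6 PCM libraries. Leaving out 1 library gave 3244 to 3507, 1780 to 1938 of them higher and 1464 to 1569 lower. The same left-out libraries gave 6512 to 6936 genes between the hairpins (3413 to 3641 higher, 3092 to 3295 lower) and 4325 to 4453 in the test between media (1880 to 1937 higher, 2445 to 2516 lower). Ndufa5 then lay between -0.22 and 0.04; it was -0.235 with GC and length trends removed, with or without a replicate block, and -0.17 on fragment totals, and passed in none of these.

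On FPKM totals, Ndufa5 was -0.42 and passed (limma adjusted p = 0.00861), 6454 genes differed in PCM (139 higher, 6315 lower), 1797 were higher between the hairpins, and 7430 passed the test between media (7337 higher, 93 lower). Totals of recovered fragments, a setting chosen after seeing the data, gave 1335 higher and 2883 lower in PCM, and 3527 higher and 1421 lower between media. In the test between media, quantile normalization gave 1729 lower, removing GC and length trends 2923 (1227 higher, 1696 lower), and the replicate block with those trends removed 2852 (1184 higher, 1668 lower). The cause of these shifts was not tested.

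Replicate numbers did not pair the libraries: deviations of same-numbered libraries correlated at 0.003, 0.008 and 0.038, and number 3 alone matched itself best. With a replicate block 3887 genes differed in PCM (2114 higher, 1773 lower), 6930 between the hairpins and 4707 between media, and of the 196 called named genes none lost its call. Of these 196, 46 lost their call on FPKM totals, 20 under quantile normalization, 40 with GC and length trends removed, 15 on fragment totals and 14 with no filter. A further 47 turned on FPKM totals, where all genes shifted by -0.30: Ndufs3 (-0.008), Ndufa7 (-0.027), Ndufs8 (-0.08), Ndufs7 (-0.08), Ndufv1 (-0.022), Ndufa2 (-0.064), Ndufa1 (-0.029), Ndufc1 (-0.045), Ndufb10 (-0.065), Ndufb9 (-0.07), Sdhc (-0.075), Sdhb (-0.097), Sdhd (-0.154), Uqcrq (-0.041), Atp5o (-0.001), mt-Co1 (-0.048), mt-Nd4 (-0.113), mt-Nd1 (-0.147), Hspe1 (-0.105), Mrpl15 (-0.056), Aldoa (-0.058), Idh2 (-0.109), Fh1 (-0.111), Got1 (-0.098), Got2 (-0.1), Pck2 (-0.046), Phgdh (-0.112), Pycr1 (-0.171), Ndrg1 (-0.089), P4ha1 (-0.156), Fasn (-0.029), Srebf1 (-0.145), Elovl1 (-0.164), Etv5 (-0.01), Mcm7 (-0.039), E2f1 (-0.041), Cdt1 (-0.09), Cks1b (-0.002), Ccnb2 (-0.007), Itga6 (-0.075), Itga5 (-0.092), Cd9 (-0.121), Vim (-0.003), Msln (-0.065), Akt2 (-0.148), Col3a1 (-0.073) and Krt19 (-0.119). Under quantile normalization 6 turned: mt-Co1 (-0.156), mt-Nd4 (-0.145), mt-Nd1 (-0.448), Aldoa (-0.067), Phgdh (-0.119) and Cd9 (-0.002). Depth of 13.8 to 33.9 M fragments and 3 libraries per group limit low genes most.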

Other observations

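Several lists outside the main results had members that differed. Among stem cell-associated genes 4 of 10 rose and 4 fell, and Bmi1, a Polycomb subunit, fell to 7.2, 6.42 and 6.01 FPKM in the libraries labelled shNdufa5_2, against 11.2, 10.3 and 10.1 FPKM in shControl libraries (log2 difference -0.61). Cytosolic heat shock genes had 6 of 16 up and 6 down, with the chaperone Hsp90aa1 at -0.50. Among 19 integrin and adhesion genes 9 rose and 4 fell, and among 14 mitochondrial chaperones and proteases 4 rose and 4 fell. Of all genes, 19.3% rose and 16.3% fell.

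Markers of other cell types were given a summed level. Fibroblast markers summed to 43.6 to 45.0 FPKM in the libraries labelled shNdufa5_2 and 31.0 to 33.8 FPKM in shControl libraries, with Thy1, Fap and Lum at 0 in all 6. Endothelial markers summed to 6.96 to 7.81 FPKM in the libraries labelled shNdufa5_2 and 3.81 to 4.86 FPKM in shControl libraries, with Emcn and Cldn5 at 0 and Plvap, the 1 marker tested, higher by 0.69. Mesothelial markers summed to 284 to 291 FPKM in the libraries labelled shNdufa5_2 and 228 to 258 FPKM in shControl libraries, with Wt1, Upk1b, Calb2 and Gpm6a at 0. Their part in the results was not tested.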
